A study of Saccharomyces cerevisiae with 14 samples.

Results

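The genes described here encode the proteins of the large subunit of the cytosolic ribosome of budding yeast (Saccharomyces cerevisiae). They were chosen by their current symbols, which are RPL followed by a number and an optional A or B, together with the genes of the acidic stalk, RPP0, RPP1A, RPP1B, RPP2A and RPP2B. The reference gene table holds 81 such genes, among 6001 genes named on either of the array formats used. They form 35 pairs of A and B paralogs and 11 single-copy genes.

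The large subunit holds the centre that joins amino acids into protein. Most of its proteins wrap around ribosomal RNA, and a few stand out from its surface, such as the stalk that recruits translation factors and the ring around the exit of the peptide tunnel. In budding yeast most of these proteins are encoded by a pair of nearly identical genes, kept since an ancient duplication of the genome, and the genes are among the most strongly transcribed in growing cells. Ribosomal protein genes are known to move together, through the factors Rap1, Fhl1, Ifh1 and Sfp1, when growth, nutrients or stress signals change.

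Transcript levels were measured with Affymetrix arrays in 5 RNA samples of background W303 and mating type MATa, grown in YEPD medium to the middle of the logarithmic phase. ARV1 codes for a protein of the endoplasmic reticulum membrane with a known link to lipid transport. The Ye6100 format (4 chips a sample) held control 1/2, from control strain SCY328, mutant 1, from ARV1 mutant SCY820, and mutant 2, from ARV1 mutant SCY840. The S98 format (1 chip) held control 3, from control strain SCY2004, and mutant 3, again from ARV1 mutant SCY840. The labels call the strains separate isolates of one genotype. They do not say what the ARV1 mutation is or how many cultures were grown, so p-values measure only how far these samples spread, which may be technical, and precision is limited by how few arrays there are. Mutants 1 and 2 were both set against control 1/2, so their ratios share its error, and mutant 3 against control 3. Each mutant is a single sample.

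The values are signals, linear intensities of 1 probe set. A gene was read from its brightest probe set that names it alone, and a log2 ratio is the log2 signal of a mutant minus that of its control, so that -1 is a 2-fold lower signal. The 2% trimmed mean signal lay between 249.7 and 250.1 for the Ye6100 samples, while on S98 control 3 had 500.3 against 250.1 in mutant 3, and the S98 signals given here are scaled to a common value. The ARV1 signal itself was 33.4 in control 1/2 and 51.8 in control 3, against 1, 2.2 and 6.79 in mutants 1, 2 and 3. The highest signal of any probe set was 28788 in control 1/2 against 10536 in mutant 1 and 23131 in mutant 2, and after scaling 5191 in control 3 and 4241 in mutant 3. The ratio of the 5' to the 3' probe sets of actin (ACT1), which falls when messenger RNA is shortened or copied in part, was 0.781 in control 1/2 against 0.764 in mutant 1 and only 0.351 in mutant 2.

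How far the arrays could tell these genes apart differed between the formats. On Ye6100, 77 of the 81 genes had a probe set, and all 77 passed the filter on low signals, which was fixed at the 25th percentile of the table. RPL29, RPL36B, RPL41A and RPL41B were not read there. On S98 only 47 genes had a probe set of their own, 32 were read only through probe sets that name both paralogs, and the remaining 2 were not named by a probe set in the annotation used. Of the 47, 6 were under the filter, namely RPL21A, RPL21B, RPL24B, RPL36A, RPL37A and RPP2B. That left 39 genes with a value in all 5 samples, and these were tested. For 7 of the 39 the Ye6100 probe set carries a suffix that marks probes shared with similar sequences. The S98 sets used for both genes of the RPL14, RPL17, RPL31 and RPL33 pairs carry such a suffix too, although the annotation names 1 gene for each.

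Across the 3 mutants the genes did not lie on one side of their controls. Over the 39 tested genes the median log2 ratios of mutants 1, 2 and 3 were -0.67, 0.16 and -0.25, against 0.24, -0.038 and 0.13 over all 4395 genes tested. Nearly all were lower than control in mutant 1 (38 of 39), few in mutant 2 (8 of 39) and most in mutant 3 (30 of 39). Of all 4395 tested genes 1582, 2264 and 1782 were lower in mutants 1, 2 and 3. Mutants 2 and 3 come from the same isolate, SCY840, and lay on opposite sides of 0. These shifts depend on the scaling. With log2 values centred on the median of the table the members' medians were -0.97, 0.26 and -0.50 in mutants 1, 2 and 3, against -0.065, 0.068 and -0.12 over all tested genes. Quantile normalization, which gives all samples of a format one distribution of signals, brought them to -0.19, 0.024 and 0. The medians over all tested genes were then 0, 0.069 and 0.0041, so in mutant 2 the members' median was no longer the higher.

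In the test over all genes (limma with the array format as a block, Benjamini-Hochberg adjustment, 3 mutants against 2 controls) no large subunit gene passed an adjusted p of 0.05. Over all 4395 genes 0 were called (0%), with 287 genes but 0 of the 39 members at an unadjusted p under 0.05. The lowest adjusted p among the members was 0.744, for RPP1B. Leaving out mutant 1 gave 31 calls, of which 1 was a member, RPL22A, whose control signal is listed at 0. Leaving out mutant 2 gave 653 calls and none among the members.

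Lower in all 3 mutants were 7 of the 39 genes (17.9%), beside 14.6% of all tested genes, so the count is near the background. They were RPP1A, RPP1B, RPL24A, RPL27A, RPL31A, RPL31B and RPL37B. Only RPL15B was higher in all 3 (1 of 39), where the background was 26.3%. No member was at least 2-fold lower in all 3 mutants (background 0.273%), and none was at least 2-fold higher (background 2.07%). Without mutant 2 the count of lower members was 30, and without mutant 1 the count of higher members was 8. The background shares above are for all 3 mutants. No share of all tested genes was taken with a mutant left out, so these counts have no background.

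**Figure D1:**
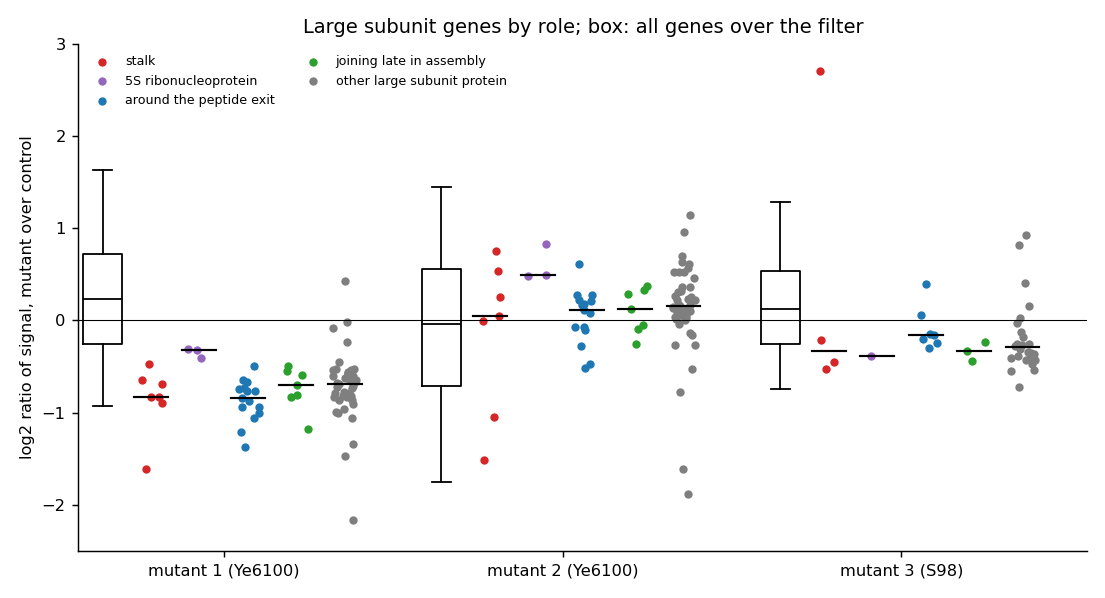
Log2 ratio of the signal of each mutant over the control of its format (vertical axis) for large subunit genes over the filter, 77 on Ye6100 and 41 on S98, coloured by role. Short lines are the medians of each role, and the box is the middle of all genes over the filter with its median and whiskers at the 5th and 95th percentiles. RPL22A in mutant 3, listed at 0 in control 3, is off the scale. Most members lie below the box median in mutants 1 and 3 and near or above it in mutant 2, with exceptions such as RPP0 in mutant 3 and RPP1B in mutant 2.

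The Ye6100 arrays, read alone, show nearly the whole subunit. In mutant 1 the 77 genes had a median log2 ratio of -0.73, with the middle 50% between -0.86 and -0.59. All but RPL15B were lower than control, 76 of 77, where 37% of all 4687 genes over the filter were lower. At least 2-fold lower were 11 of the 77 (background 4.29%), among them RPL36A, RPP1B and RPL21A. In mutant 2 the median was 0.15, and 21 of 77 were lower, where the background was 51.6%. Those at least 2-fold lower in mutant 2 were 4 genes, RPL18B, RPL36A, RPP1A and RPP1B, where the background was 17%. With quantile normalization 57 of 77 were lower in mutant 1 and 31 in mutant 2, and no share of all genes was taken under that setting. No mutant has a replicate on its array format, so these counts have no test.

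Set directly against each other, without the control they share, the mutants differed across almost the whole set. The signal was higher in mutant 2 than in mutant 1 for 74 of the 77 genes, with a median log2 difference of 0.90. Over all genes on Ye6100 39.4% were higher in mutant 2, but among 61 genes outside the cytosolic ribosome with a mean signal at or above the members' lower quartile 49 were, with a median of 0.68. The 3 exceptions among the members were RPL18B at -0.54, RPL15B at -0.20 and RPP1A at -0.15. With median centring the count was 76 and with quantile normalization 59, settings tried for it after the data were seen. No share of all genes was taken under these settings. Each isolate is 1 sample here, so isolate and sample cannot be told apart.

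These genes hold the top of the signal range, and the top of the range itself differed between samples. On Ye6100, 75, 73 and 75 of the 77 genes lay over the 90th percentile of control 1/2, mutant 1 and mutant 2. The 99th percentile of all probe sets, set against control, had log2 ratios of -0.64 (mutant 1), 0.13 (mutant 2) and -0.27 (mutant 3). Genes outside the cytosolic ribosome with a mean signal at or above the members' lower quartile numbered 61 on Ye6100, and their median log2 ratio was -0.51 in mutant 1 (49 of 61 lower) and -0.022 in mutant 2 (33 of 61 lower). The part of the signal range in the members' ratios was not tested.

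On S98 the same question could be split by signal. The dividing level was a mean signal of 2358, which is 50% of the average of the highest signals of control 3 and mutant 3. Of the 41 members over the filter, 29 had a mean signal over that level. Of these, 28 were lower in mutant 3, with a median log2 ratio of -0.31. Among all 257 genes in that range 219 were lower, with a median of -0.26. Of the 12 members under that level 4 were lower, and their median was 0.28, beside 0.15 for all genes under it. The count over the 41 was 32 lower, where 41.7% of the 5236 genes over the filter were lower, and no member was at least 2-fold lower (background 2.02%). So the direction of the median in mutant 3 turned when the brightest members were left out.

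**Figure D2:**
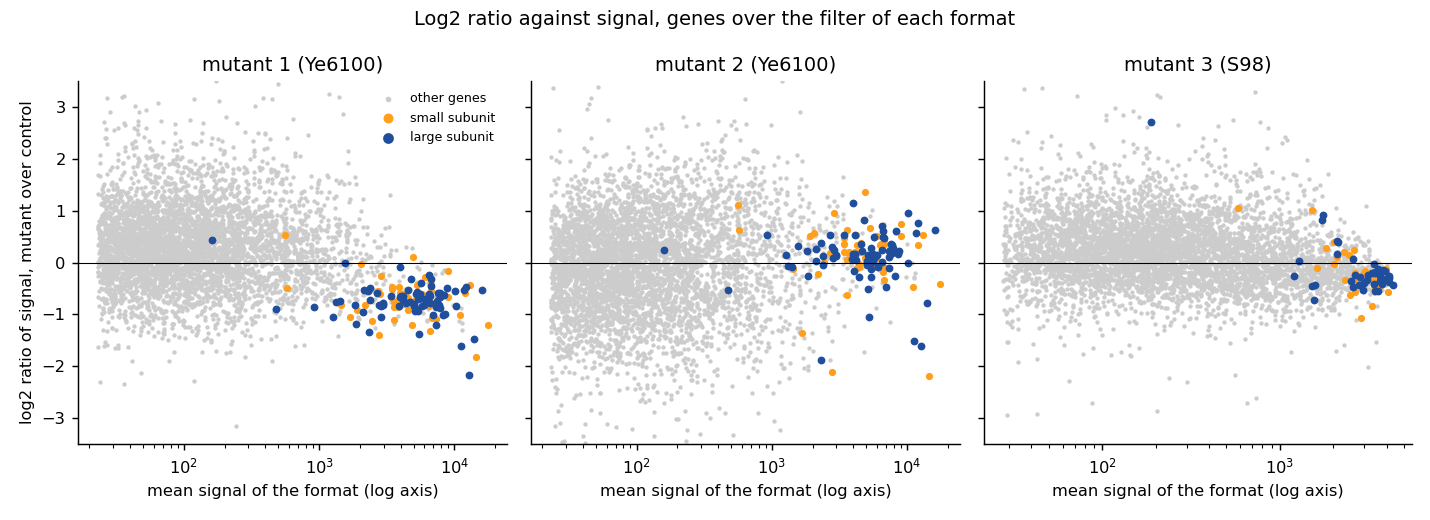
Log2 ratio of each mutant over its control (vertical axis) against the mean signal on that format (horizontal log axis) for genes over the filter, with large subunit genes in blue, small subunit genes in orange and all others in grey. In mutant 1 the large subunit genes form a band near the median of -0.73, and in mutant 2 they spread around 0.15. On S98 29 of 41 crowd over a mean signal of 2358. RPL22A in mutant 3 is off the scale.

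The stalk is the flexible arm that binds translation factors. RPP0 is its base, the acidic proteins of the RPP1 and RPP2 families form dimers on it, and RPL12A and RPL12B encode the protein beside its root. The members of the stalk differed in their ratios. RPP1A had signals of 7729.9 in control 1/2 against 4169 in mutant 1 and 3748 in mutant 2, and of 1761 in control 3 and 1288 in mutant 3. Each mutant was under its control, with log2 ratios of -0.89, -1.04 and -0.45 in mutants 1, 2 and 3. The fitted log2 change was -0.75 ± 0.36 (SE, 3 mutants and 2 controls), with a limma adjusted p of 0.781.

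RPP1B, its paralog, had signals of 20151 in control 1/2 against 6578 in mutant 1 and 7032 in mutant 2, and of 3672 in control 3 and 3179 in mutant 3. The Ye6100 control was far above both mutants, and the S98 pair lay close together. Its log2 ratios were -1.62, -1.52 and -0.21, and the fitted change of -0.98 ± 0.43 was the lowest of the 39 members (adjusted p 0.744). A different probe set of RPP1B, for exon 1, read 4864, 3060.5 and 7018 on Ye6100 in control 1/2, mutant 1 and mutant 2, so mutant 2 was above control there. A second S98 probe set of RPP1B is listed at 0 in both samples.

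RPP2A and RPP2B, the genes of the other acidic family, did not share the low values of RPP1A and RPP1B in mutant 2. RPP2A read 10676 in control 1/2 against 7687 in mutant 1 and 17997 in mutant 2, and 3468 in control 3 and 2399.6 in mutant 3, so that mutant 2 was above control and the other mutants were under their controls. RPP2B read 11993 in control 1/2 against 6740.3 in mutant 1 and 11905 in mutant 2. On S98 RPP2B was at 1.98 in control 3 and 8.34 in mutant 3, near the floor of 1.98, although it was among the bright genes on Ye6100. The fitted change of RPP2A was -0.15 ± 0.48 (adjusted p 0.983).

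RPP0 read 4678 in control 1/2 against 2991 in mutant 1 and 4845 in mutant 2, much like the rest of the set. On S98 it read only 50.3 in control 3 and 328 in mutant 3, a log2 ratio of 2.70. Its fitted change of 0.99 ± 0.73 (adjusted p 0.858) rests on that dim S98 pair, and without mutant 3 it was -0.30. In mutants 1 and 2 the log2 ratios were -0.83 and 0.25 for RPL12A and -0.69 and 0.53 for RPL12B. Their brightest shared S98 probe set had a ratio of 0.062 and the other 2 shared sets had 0.12 and -0.31.

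The proteins around the peptide exit hold the docking site for chaperones and targeting factors, and RPL25 is a known contact of the signal recognition particle. On Ye6100 all 15 of these genes were lower in mutant 1, with a median log2 ratio of -0.84, and 6 of 15 were lower in mutant 2, with a median of 0.12. Over all members 76 of 77 and 21 of 77 were lower in mutants 1 and 2, beside 37% and 51.6% of all genes. Some counts in mutant 2 depend on the set used. Dimmer sets of RPL4B were above control there, at 0.47 and 0.49, and dimmer sets of RPL17A and RPL19A were below, at -0.013 and -0.064. RPL25 read 6248 in control 1/2 against 3985 in mutant 1 and 9555 in mutant 2, and 2896 in control 3 and 2441 in mutant 3. It was highest in mutant 2 and lowest in mutant 1, and slightly lower in mutant 3 than in control 3.

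RPL31A and RPL31B encode a protein at the rim of the exit, which contacts a ribosome-bound chaperone. RPL31A read 7369 in control 1/2 against 2854 in mutant 1 and 6062 in mutant 2, and 4551 in control 3 and 3706 in mutant 3. All 3 mutants were under their controls, with a fitted log2 change of -0.60 ± 0.45 (adjusted p 0.859). A dimmer S98 probe set of RPL31A read 379 in control 3 and 1272 in mutant 3 and so went the other way, and the fitted change was 0.38 when its probe sets were averaged and 0.53 when shared probe sets were left out. RPL31B read 9247 in control 1/2 against 3997 in mutant 1 and 8637 in mutant 2, and 4013 in control 3 and 3626 in mutant 3, with a fitted change of -0.44 ± 0.46 (adjusted p 0.926). These low values in mutant 2 are those of the brightest Ye6100 sets, for exon 1. The exon 2 sets lay above control there, with log2 ratios of 0.039 for RPL31A and 0.10 and 0.25 for RPL31B. Of the 3 S98 sets of RPL31B 1 was above control in mutant 3, at 0.12.

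RPL38 and RPL39, also of this region, were lower in mutant 1 alone. RPL38 read 6549 in control 1/2 against 3649 in mutant 1 and 7099 in mutant 2, and 1838 in control 3 and 2412 in mutant 3. RPL39, the smallest of the exit proteins, read 8294 in control 1/2 against 5224 in mutant 1 and 10052 in mutant 2, and 2526 in control 3 and 2640.2 in mutant 3. For both genes the samples of SCY840 lay above their controls and the sample of SCY820 below.

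The proteins that join the subunit late in assembly, on its side facing the small subunit or in the cytoplasm, include RPL10, RPL24A, RPL24B, RPL29, RPL40A, RPL40B, RPL42A and RPL42B. On Ye6100 7 of them were read, all lower in mutant 1 (median -0.70), and 3 of 7 were lower in mutant 2 (median 0.13). These counts stand beside 76 of 77 and 21 of 77 over all members, and 37% and 51.6% of all genes. RPL10, a single-copy gene whose protein reaches the peptidyl transferase centre, read 8004 in control 1/2 against 5301 in mutant 1 and 10076 in mutant 2, and 1809 in control 3 and 1336 in mutant 3. RPL29, read on S98 only, had 3477 in control 3 and 2754 in mutant 3. RPL40A and RPL40B encode ubiquitin joined to a ribosomal protein. Their brightest shared S98 probe set was under its control, with 4359 in control 3 and 2396 in mutant 3, and the ratios of the 3 shared sets were -0.86, -1.33 and -0.33. These RPL40 sets were singled out after their values were seen.

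RPL5, RPL11A and RPL11B bind the 5S ribosomal RNA and dock with it as one particle. On Ye6100 these 3 genes had a median log2 ratio of -0.31 in mutant 1 and of 0.49 in mutant 2, with no test. A second RPL11B set of similar brightness had -0.66 and 0.097, lower in both mutants than the -0.40 and 0.48 of the set used. RPL5 read 6221 in control 1/2 against 5011 in mutant 1 and 8734 in mutant 2, and 4688 in control 3 and 3598 in mutant 3. Its Ye6100 mutants lay on either side of control 1/2, and mutant 3 was under control 3.

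The single-copy genes formed a narrow group on Ye6100 but not on S98. In mutant 3 the 11 had log2 ratios from -0.47 to 2.70, with 8 of 11 lower and the dim RPP0 highest. The 10 read on Ye6100 had log2 ratios from -0.84 to -0.31 in mutant 1 and from 0.0098 to 0.61 in mutant 2, so all were under control in the first and above it in the second. Over all members 32 of 41 were lower in mutant 3, 76 of 77 in mutant 1 and 21 of 77 in mutant 2. The shares of all genes were 41.7%, 37% and 51.6%. For RPL3, also of the peptidyl transferase centre, mutants 1, 2 and 3 gave log2 ratios of -0.60, 0.25 and -0.13. RPL28 had -0.67, 0.0098 and -0.34 and RPL30, known for holding back the splicing of its own transcript, had -0.66, 0.17 and -0.28. RPL32 read 5846 in control 1/2 against 3349 in mutant 1 and 5953 in mutant 2, and 2988 in control 3 and 2160.5 in mutant 3. It was lower in mutants 1 and 3 and about level in mutant 2, and its fitted change was -0.42 ± 0.40 (adjusted p 0.918).

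Among the other members the lowest fitted changes belonged to RPL16B, RPL9A and RPL37B. RPL16B read 4517 in control 1/2 against 2540.0 in mutant 1 and 4717 in mutant 2, and 4089 in control 3 and 2799 in mutant 3, for a fitted log2 change of -0.45 ± 0.41 (adjusted p 0.91). RPL9A read 6039 in control 1/2 against 3987 in mutant 1 and 6781 in mutant 2, and 1955 in control 3 and 1186 in mutant 3, with -0.43 ± 0.41 (adjusted p 0.917). In RPL16B and RPL9A mutant 2 was slightly above control and the other mutants below. RPL37B read 10509.7 in control 1/2 against 5229 in mutant 1 and 8747 in mutant 2, and 3429.7 in control 3 and 3358 in mutant 3. It was lower in all 3 mutants, by little in mutant 3, with a fitted change of -0.38 ± 0.40 (adjusted p 0.926). Also lower in all 3 were RPL24A and RPL27A, with log2 ratios of -0.70, -0.091 and -0.23, and of -0.72, -0.041 and -0.36.

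At the high end stood RPL7B, RPL15A, RPL15B, RPL14A and RPL6B, beside RPP0. RPL7B read 2206 in control 1/2 against 1531 in mutant 1 and 2660.2 in mutant 2, and 1209 in control 3 and 2295 in mutant 3, with a fitted change of 0.32 ± 0.46 (adjusted p 0.946). It was above control by a wide margin on S98 only, and a dimmer S98 set of RPL7B read 787 in control 3 and 444 in mutant 3, the opposite way. Its dimmer Ye6100 set, for exon 1, read 370 in control 1/2 against 234 in mutant 1 and 276 in mutant 2, lower in both. RPL15B read 137 in control 1/2 against 184 in mutant 1 and 161 in mutant 2, and 1273 in control 3 and 1300.2 in mutant 3, so it was the dimmest member on Ye6100 and the only one above control in mutant 1. Its paralog RPL15A read 2867 in control 1/2 against 2715 in mutant 1 and 6320.1 in mutant 2, which was the highest ratio of any member in mutant 2, 1.14. RPL14A read 6682 in control 1/2 against 3766 in mutant 1 and 7377 in mutant 2, and RPL6B 4591 in control 1/2 against 3183 in mutant 1 and 5919.9 in mutant 2, both lower in mutant 1 alone. On S98 RPL14A read 1249 in control 3 and 2209 in mutant 3 and RPL6B 1796 in control 3 and 2389.7 in mutant 3, above control. The fitted changes were 0.20 ± 0.36 for RPL15B, 0.17 ± 0.50 for RPL15A, 0.16 ± 0.49 for RPL14A, 0.13 ± 0.43 for RPL6B and -0.04 ± 0.45 for RPL38, each smaller than its SE.

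Some signals were at or near 0 on S98 although the same genes were bright on Ye6100. RPL21B and RPL36A are listed at 0 in both S98 samples, RPL24B at 0 in control 3 and 0.707 in mutant 3, and 1 of the S98 sets of RPL17A at 0 in both. RPL21A read 2.97 in control 3 and 8.06 in mutant 3 and RPL37A 2.26 in control 3 and 5.52 in mutant 3. On Ye6100 the lowest signal of RPL21B was 10291 and that of RPL24B 3364, both in mutant 1. These S98 sets therefore carry no ratio for their genes.

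A few S98 sets were at or near 0 in control 3 alone. RPL22A is listed at 0 in control 3 and read 1586 in mutant 3, while on Ye6100 it read 9732 in control 1/2 against 4898 in mutant 1 and 10855 in mutant 2. Its fitted change, the highest by rank, rests on that 0 and is not given. The set shared by RPL2A and RPL2B read 21 in control 3 and 846 in mutant 3, and the set shared by RPL26A and RPL26B 16.5 in control 3 and 487 in mutant 3. On Ye6100 the brightest sets of the RPL2 and RPL26 genes had log2 ratios between -0.78 and -0.071 in mutants 1 and 2. Over all their Ye6100 sets the ratios ran from -0.99, in a dim set of RPL26A, to 0.40, in a set of RPL2A. RPL2 and RPL26 were named after their values were seen.

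RPL36A, RPL21A and RPL18B were low in both Ye6100 mutants, and they were named after their values were seen. RPL36A read 24612 in control 1/2 against 5509.6 in mutant 1 and 8070.4 in mutant 2, the highest control signal and the lowest ratio of any member in mutant 1, -2.16. RPL21A read 21640.3 in control 1/2 against 7833 in mutant 1 and 12656 in mutant 2, with ratios of -1.47 and -0.77. RPL18B read 4186 in control 1/2 against 1652 in mutant 1 and 1139 in mutant 2, with ratios of -1.34 and -1.88, the lowest of any member in mutant 2. In each gene both mutants lay below the control they share, so both ratios rest on that 1 control signal. S98 gave no usable value of their own for any of them, and the set shared by RPL36A and RPL36B read 3149 in control 3 and 2823 in mutant 3.

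**Figure D3:**
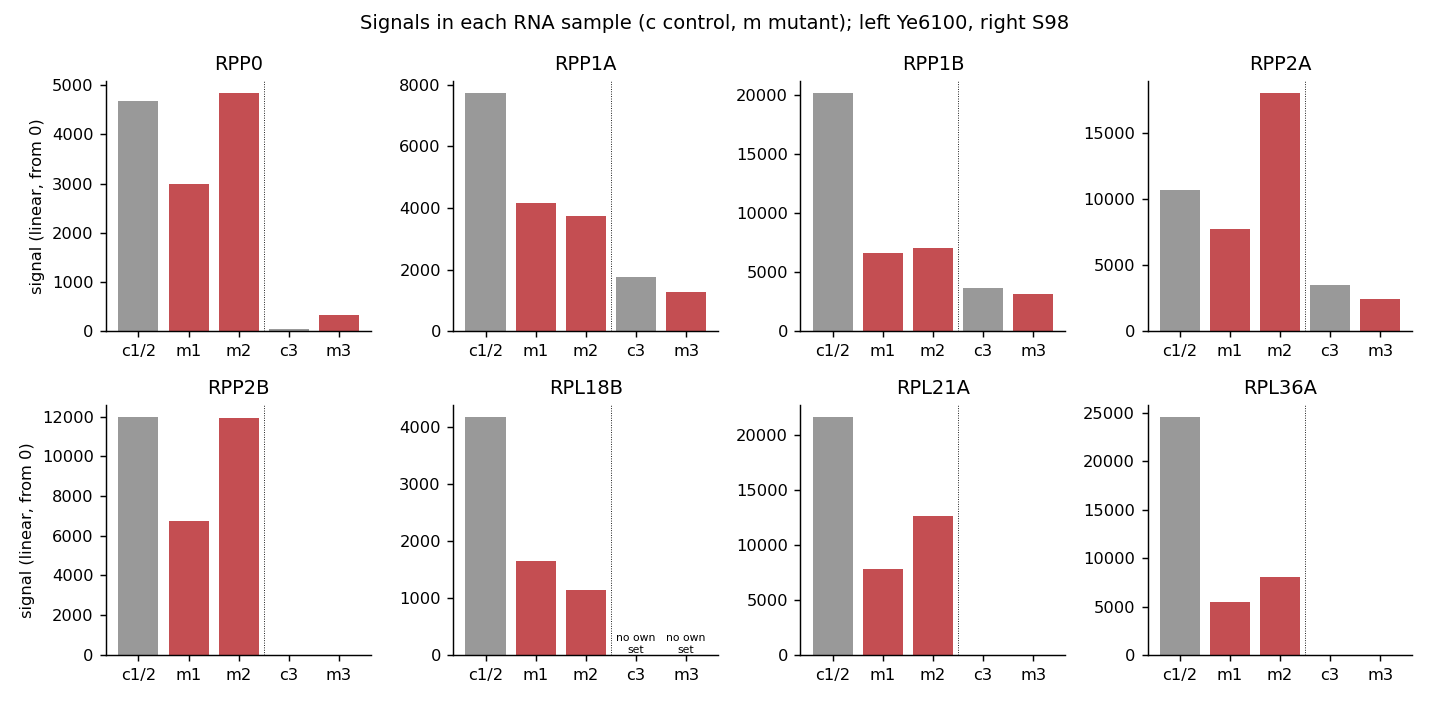
Signal of the acidic stalk genes and of RPL18B, RPL21A and RPL36A in each RNA sample, on linear axes from 0, with controls (c) in grey and mutants (m) in red. Ye6100 samples stand left of the dotted line and S98 samples, scaled to each other, right of it, and the formats are not on one scale. RPP1A, RPP1B, RPL18B, RPL21A and RPL36A are lower in both Ye6100 mutants, and RPP2B, RPL21A and RPL36A are at or near 0 on S98.

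The paralogs of a pair mostly had log2 ratios within 0.5 of each other, but the members as a whole also lay close together. The lower and upper quartiles of the 77 members on Ye6100 were -0.86 and -0.59 in mutant 1 and -0.041 and 0.33 in mutant 2. Those of the 41 members on S98 were -0.41 and -0.13 in mutant 3. A difference under 0.5 therefore does not set pairs apart, and pairs were not compared with members that are not paralogs. On Ye6100 33 pairs had both genes over the filter, and the A and B log2 ratios differed by under 0.5 in 27 of 33 pairs in mutant 1 and in 26 of 33 in mutant 2. The median absolute difference was 0.17 in mutant 1 and 0.19 in mutant 2. The A gene had the higher ratio in 17 of 33 pairs in either mutant. On S98 13 pairs had own probe sets over the filter for both genes, 8 of them within 0.5, with a median absolute difference of 0.34. In RPL14, RPL17, RPL31 and RPL33 these S98 sets carry the suffix that marks shared probes. How far probes shared between paralogs draw their ratios together was not tested.

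The same order of A and B in all 3 mutants was found in 3 of the 13 pairs tested, and no pair differed by over 0.5 the same way in all 3. In RPL7 the A gene had the lower ratio, with A minus B at -0.25, -0.14 and -1.33 in mutants 1, 2 and 3. The Ye6100 sets used for RPL7 carry the suffix for shared probes, and other sets had the A gene higher. In mutants 1 and 2 the exon 1 sets had log2 ratios of -0.46 and -0.12 for RPL7A. Those of RPL7B, from a dim set, were -0.66 and -0.42. In mutant 3 a dimmer S98 set of each gene had -0.18 for RPL7A and -0.83 for RPL7B. In RPL31 A minus B was -0.16, -0.18 and -0.15, and in RPL17 it was 0.38, 0.044 and 0.048. The count was 1 when probe sets were averaged and 0 when shared ones were left out.

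Of the 6 pairs with the largest mean differences, RPL6, RPL7, RPL9 and RPL14 differed most on S98. In RPL14 A minus B was -0.16, 0.033 and 1.25 in mutants 1, 2 and 3. RPL14B read 3202 in control 3 and 2385 in mutant 3, so it was under control on S98 where RPL14A was above, while the brightest set they share had a ratio of -0.21. In RPL6 the difference was -0.12, 0.16 and -0.76, in RPL9 0.039, 0.32 and -0.88, and in RPP1 0.72, 0.47 and -0.24. RPL22 is among the 13 pairs and the 6, but its S98 difference rests on RPL22A listed at 0 and is not given. RPL22B read 925 in control 1/2 against 507 in mutant 1 and 1336 in mutant 2, and 1310.5 in control 3 and 1091 in mutant 3.

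Some pairs for which S98 gave no ratio of each gene came apart on Ye6100, and they were named after their values were seen. In RPL21 A minus B was -0.93 in mutant 1 and -1.41 in mutant 2, where RPL21B read 14880.0 in control 1/2 against 10291 in mutant 1 and 23131 in mutant 2. RPL20A, dim at 641 in control 1/2 against 343 in mutant 1 and 445 in mutant 2, differed from RPL20B by -0.28 and -1.13. RPL43A read 8366 in control 1/2 against 5693 in mutant 1 and 16323 in mutant 2, and its ratio was above that of RPL43B by 0.18 and 0.86.

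**Figure D4:**
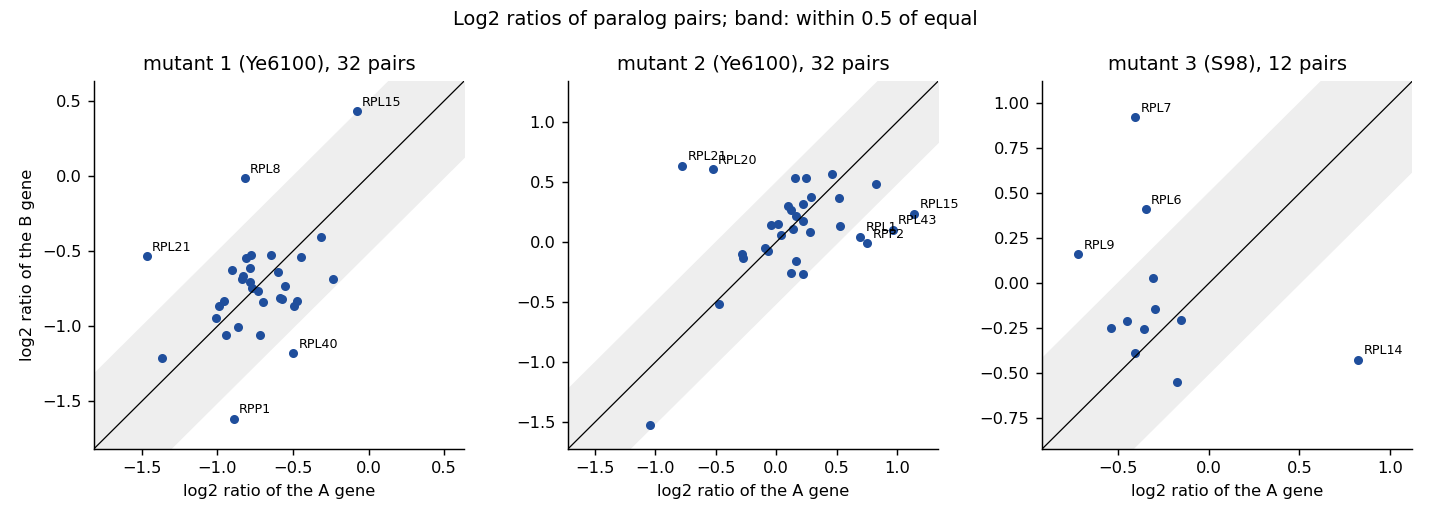
Log2 ratio of the B gene (vertical axis) against that of the A gene (horizontal axis) in each mutant, 1 point a pair for 32 of the 33 pairs on Ye6100, with the line of equality and a grey band within 0.5 of it. Names mark pairs outside the band. The RPL22 pair is left out of the S98 panel because RPL22A is listed at 0, and of the pairs plotted RPL21 in mutant 2 lies farthest from the line.

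Ye6100 has probe sets named for both exons of 13 members, which gave 2 readings for each. Some of these sets carry the suffix that marks shared probes. The exon 2 reading had the higher log2 ratio in 7 of 13 genes in mutant 1 and in 7 of 13 in mutant 2, with median differences of 0.10 and 0.20. Mutant 2 is the sample whose actin ratio was lowest, and its part in these differences was not tested. RPP1B had the widest gap, with exon 1 at 0.53 and exon 2 at -1.52 in mutant 2. RPL18B had exon 1 at -1.88 and exon 2 at -0.38 there. Both of these sets carry the suffix that marks shared probes, and the part of shared probes in that gap was not tested. A second RPL18B exon 1 set read 3372, 1172 and 865 in control 1/2, mutant 1 and mutant 2, the same way as the first.

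**Figure D5:**
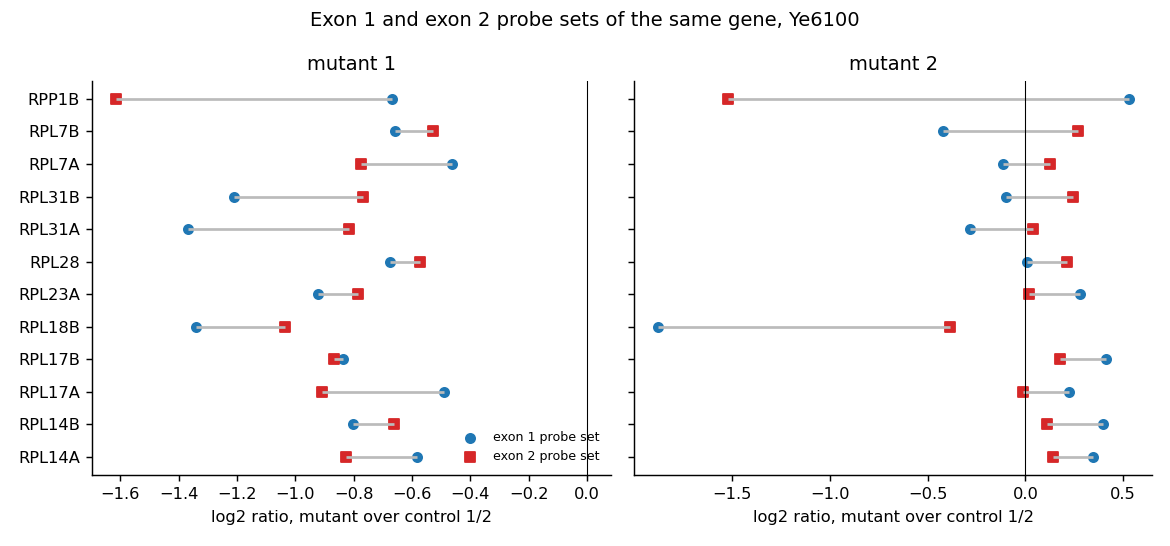
Log2 ratio against control 1/2 (horizontal axis) of the brightest exon 1 probe set (blue circles) and exon 2 probe set (red squares) of 12 of the 13 large subunit genes on Ye6100, joined by a grey line for each gene. Most pairs of points lie close together, and of the genes plotted RPP1B and RPL18B are widest apart in mutant 2.

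In the gene order of the reference, 2 couples of members are direct neighbours. RPL13A lies next to RPP1A and had log2 ratios of -0.57, 0.097 and -0.54, against -0.89, -1.04 and -0.45 for RPP1A. The neighbours were farthest apart in mutant 2. RPL24A lies next to RPL30, and both had their highest ratio in mutant 2.

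The small subunit genes gave nearly the same picture as the large. On Ye6100 all 56 were read, with median log2 ratios of -0.69 in mutant 1 and 0.20 in mutant 2, and 53 of 56 were higher in mutant 2 than in mutant 1. On S98 their median was -0.21 over 31 genes. Genes of the mitochondrial large subunit, a separate ribosome of bacterial descent, had medians of -0.34 and -0.041 in mutants 1 and 2 over 33 genes and -0.55 in mutant 3 over 34. The differences between these groups and the large subunit were not tested.

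The factors that build the large subunit or escort its proteins were also read. All 31 of these assembly and chaperone genes were tested, and 0 passed the limma test at an adjusted p of 0.05. They were lower in mutant 1 in 31 of 31 cases, with a median of -1.02, and in 25 of 31 in mutant 3, with a median of -0.35. In mutant 2 20 of 31 were lower, with a median of -0.25. The shares of all genes over the filter that were lower were 37%, 51.6% and 41.7% in mutants 1, 2 and 3. Lower in all 3 mutants were 17 of 31 (54.8%), where the background is 14.6%. The share was similar among the mitochondrial large subunit genes, 17 of 33 tested (51.5%), so it is not particular to the assembly factors. Of the regulators of ribosomal protein genes 10 of 11 were tested, 0 passed, and their medians were 0.25, -0.65 and 0.026 in mutants 1, 2 and 3.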

How the data were processed

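Per the labels' protocols, poly(A) RNA was copied into biotin-labelled cRNA for Affymetrix arrays. The deposited values are linear signal intensities, for which the submitters' processing notes name MAS5. MAS5's version and scaling target and the genome build: not given in the sources used here. In the deposited Ye6100 data the 4 chips of a sample are joined in a single column, which counted as 1 replicate.

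Open reading frames that name Ye6100 probe sets were matched to the reference table (assembly R64, 5837 by locus tag and 56 by synonym). S98 probe sets took the platform annotation (6504 with 1 gene, 328 with several, 2503 with none). Ye6100 signals were used as deposited. S98 signals were multiplied by 0.707 in control 3 and by 1.41 in mutant 3, which makes their 2% trimmed means equal. Before log2, values under a table's 5th percentile were set to it (2.4 and 1.98). A gene was tested when its brightest probe set of a single symbol exceeded the 25th percentile in both tables (23.1 and 27.6).

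Genotype was tested with limma 3.58.1 (R 4.3.3, lmFit, eBayes with trend) and the array format as block, leaving 2 residual degrees of freedom, with Benjamini-Hochberg adjustment over all 4395 genes at 0.05. The block equals the pairing by the labels' replicate numbers, in which mutants 1 and 2 share control 1/2. The fit was tested on simulated data. Named by rule were the 8 highest and 8 lowest members by fitted change, members at least 2-fold changed in all 3 mutants, members listed at 0, the stalk and single-copy genes, the 6 pairs with the largest mean difference and RPL22. The members and lists were chosen with earlier results of these data known. Alternatives changed the scaling, the floor, the filter, the probe sets used, the block, the trend and the threshold, or left out a sample. A planned search for Rap1 sites was not run, as promoter sequences were not used here. matplotlib 3.10.9 (Python 3.11.15) drew the figures. The values of 1 member are counted in the totals and medians but are not reported here.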

Additional observations from a re-analysis of the deposited data

Results flagged for a closer look

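For 7 of the 39 tested members the sample of isolate SCY820 (mutant 1) lay below its control and both samples of isolate SCY840 (mutants 2 and 3) lay above theirs. For 1 of the 7, RPL22A, the control 3 signal is listed at 0, so no size is given. The difference between the isolates was not tested, as SCY820 was measured in 1 sample. Among all 4395 tested genes 2.62% showed this split, beside 17.9% of the members, and the members' ratios are not independent of each other. Of the 7 only RPL39 had a mean S98 signal over 2358. Under that level 4 of 12 tested members were lower in mutant 3, against 26 of 27 over it. The part of the S98 signal in this split was not tested. Of all 4395 tested genes 1582, 2264 and 1782 were lower than control in mutants 1, 2 and 3. Of the 39 members 38 were lower than control in mutant 1, 8 in mutant 2 and 30 in mutant 3. So for many members the samples of SCY840 lay on opposite sides of their controls. The log2 ratio of mutant 1 minus the mean of mutants 2 and 3 was -2.02 for RPP0, -1.31 for RPL14A, -1.12 for RPL7B, -1.10 for RPL38, -0.92 for RPL6B and -0.84 for RPL39. For RPP0 the size comes from its dim S98 signals. In mutant 3 a dimmer S98 set of RPL7B had a log2 ratio of -0.83. A dimmer Ye6100 set of RPL7B, for exon 1, was below control in mutant 2 too, at -0.42. The S98 sets shared by RPL14A and RPL14B had -0.21, -0.30 and 0.17.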

How the results depend on the processing

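limma called 1 gene over all genes with quantile normalization, 0 without the replicate block (the array format, which is also the pairing by number) and 0 to 653 with 1 sample left out. Among members it called 0 without the block and 0 to 1 with 1 sample left out. Members lower in all remaining mutants were 7 to 30 with 1 sample left out, and 30 without control 1/2. Members higher in all were 0 with median centring, 3 with quantile normalization, 1 to 8 with 1 sample left out and 9 without control 1/2. Members 2-fold changed the same way were 0 to 1 with 1 sample left out and 2 without control 1/2. No share of all tested genes was taken for the counts with a sample left out. Pairs with the same order were 1 from the mean of probe sets, 0 without shared probe sets, 5 to 7 with 1 sample left out and 13 without control 1/2, where 1 mutant remains. Quantile normalization moved the median in mutant 1 to -0.19 over tested members and to -0.23 over all members on Ye6100. Leaving out members over a mean S98 signal of 2358, a level chosen after seeing the data, moved that of mutant 3 to 0.28. Of 123 alternative counts and medians the other 100 differed by at most 1.5 times (counts) or by less than 0.41, the SD of the mutants' medians. That span is wide: median centring gave medians of -0.97 in mutant 1 and -0.50 in mutant 3, and quantile normalization gave 0.024 in mutant 2 and 0 in mutant 3, with 57 members lower in mutant 1 on Ye6100 and 59 higher in mutant 2 than in mutant 1. Of 194 alternative fitted changes of 15 members, 20 reversed and 0 passed the threshold. RPL31A was 0.38 and RPL7B -0.17 by the mean of probe sets, and RPL31A was 0.53 without shared probe sets. RPL38 was 0.16 with quantile normalization, RPL6B -0.034 and RPL14A -0.0077 with median centring, and RPL38 0.19 and RPL15B -0.30 without the block. With 1 sample left out RPL38 ranged from -0.36 to 0.25, RPL6B from -0.081 to 0.39, RPL14A from -0.34 to 0.48, RPL15A from -0.19 to 0.53, RPL7B from -0.13 to 0.60 and RPP0 from -0.30 to 1.38. The causes were not tested. A test without control 1/2 had no residual degrees of freedom.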
